A study of Mus musculus with 10 samples.

Results

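Aminoacyl-tRNA synthetases are the enzymes that load each amino acid onto its transfer RNA. The 36 named members comprised 20 cytosolic and 16 mitochondrial genes, and were taken by symbol from the platform's gene names. Of these, 33 were measured among 19935 genes, which is 17 of 20 cytosolic and 16 of 16 mitochondrial genes. Aars was represented only by a probe set that also reads Exosc6, and Dars and Mars were not analysed here. Where a gene had several probe sets, the one with the highest mean over the 10 arrays was used, and all values are log2 of the deposited intensity.

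Livers of 12-week-old mice were profiled on 1 Affymetrix array each, from total RNA, for 5 NML-KO and 5 WT animals. NML is nucleomethylin, a nucleolar protein encoded by Rrp8. The labels give no strain, sex, feeding state or time of dissection, and describe no treatment. Nothing in them says whether the 5 livers of a genotype came from separate litters, so the p-values measure only the spread between these samples.

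Synthetases fall into 2 structural classes, I and II, which bind ATP with unrelated folds. In the cytosol, several of them, among them Eprs, Iars, Kars, Lars, Qars and Rars, are held together with the scaffold proteins Aimp1, Aimp2 and Eef1e1 in a multi-synthetase complex. The mitochondrial enzymes are encoded in the nucleus and imported to serve the tRNAs made from mitochondrial DNA, while the single genes Gars and Kars supply both compartments. Several cytosolic synthetase genes are known targets of the transcription factor ATF4 when amino acids run short.

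All NML-KO livers had less Rrp8, between 6.65 and 7.19, against 7.65 to 7.90 in the WT livers. The 10 livers also differed in Dbp, a transcription factor gene with a strong daily rhythm in liver. Dbp was 9.68, 9.71 and 9.71 in NML-KO livers 1 to 3 and 10.23 and 9.87 in WT livers 1 and 2, which form the Dbp-high set, against 6.60 and 6.47 in NML-KO livers 4 and 5 and 6.27, 6.58 and 6.20 in WT livers 3 to 5, the Dbp-low set. Arntl, a core clock activator, lay between 5.55 and 5.90 in the Dbp-high livers and between 8.10 and 8.27 in the Dbp-low livers. The sets come from 1 measured gene and from no label, so comparisons between them describe how these livers separate and are no test of a treatment. The difference between the sets was fitted with genotype in the model. The median intensity of an array was 62.5 to 66.7, and precision is limited by how many arrays there are.

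The promoters of the 2 synthetases that differed most between the Dbp sets are shown, since each holds 1 match to a motif of interest. Both are the 250 bases before the gene's start in RefSeq (GRCm38.p6), with the match in capitals. The Tars promoter is at chr15:11399659-11399908 on the minus strand and the Iars promoter at chr13:49681880-49682129 on the plus strand.
Tars: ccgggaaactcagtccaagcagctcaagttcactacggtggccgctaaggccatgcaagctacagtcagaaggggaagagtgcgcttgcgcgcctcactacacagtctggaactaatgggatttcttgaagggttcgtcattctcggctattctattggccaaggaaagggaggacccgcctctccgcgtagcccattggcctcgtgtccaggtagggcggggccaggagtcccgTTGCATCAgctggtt
Iars: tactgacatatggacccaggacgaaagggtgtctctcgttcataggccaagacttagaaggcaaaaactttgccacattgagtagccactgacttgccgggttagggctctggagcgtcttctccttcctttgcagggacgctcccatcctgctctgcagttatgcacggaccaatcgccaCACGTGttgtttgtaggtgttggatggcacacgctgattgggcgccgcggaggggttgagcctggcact
The Tars match is the reverse strand of TGATGNAA, the core of the element that ATF4 dimers are known to bind, and begins 15 bases before the start. This core was present in 3.45% of 32851 promoters, searched on both strands, and in those of Gars and Tars among 25 promoters of 24 measured members. The Iars match is CACGTG, the E-box that the clock activators bind, and begins 69 bases before the start. It was present in 6.02% of promoters, and among the members in those of Farsb and Iars. TTANGTAA, the core of the element bound by Dbp itself, was present in 2.06% of promoters and in 0 of the 25 member promoters. No match was found in the window of Yars2, nor in those of Eprs and Wars2, whose start in the promoter table lies inside the span listed for the gene. A match describes the sequence only.

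Between Dbp-high and Dbp-low livers, Tars and Yars2 were lower and Eprs and Wars2 higher in the Dbp-high set, and Iars was lower on 1 of its 2 probe sets. These 5 of 33 members, 15.2%, passed an adjusted p of 0.05 in limma (Benjamini-Hochberg over all genes), against 12.9% of all 19935 genes, so the share of members called was near that of the array as a whole. In the cytosolic list 3 of 17 were called, 1 higher and 2 lower, and in the mitochondrial list 2 of 16, 1 higher and 1 lower. With the other Iars probe set in its place, 2 of 17 cytosolic synthetases were called. Of all genes, 4.92% were called higher and 7.99% lower. At an unadjusted p under 0.05 there were 13 of 33 members, 6 higher and 7 lower, against 26.9% of all genes, 12.5% higher and 14.4% lower. The median log2 difference was 0.022 for cytosolic and -0.019 for mitochondrial synthetases, with 10 of 17 and 7 of 16 above 0, against 0.024 and 57.5% for all genes.

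Tars, which charges threonine tRNA in the cytosol, had the smallest p among the members. It stood at 8.59, 8.58 and 8.52 in the NML-KO and 8.42 and 8.79 in the WT livers of the Dbp-high set, against 9.49 and 9.54 in the NML-KO and 9.55, 9.42 and 9.45 in the WT livers of the Dbp-low set. The sets did not overlap, and all 5 Dbp-low livers lay within a narrow band. The log2 difference was -0.91 (SE 0.07), 1.88-fold lower, with limma's adjusted p = 7.46e-05. Tars ranked 52 of 19935 genes by p, and 1.39% of genes had a larger absolute difference. It was lower in both genotypes, with a difference of -0.95 among NML-KO livers (adjusted p = 0.0188) and of -0.87 among WT livers (adjusted p = 0.0214).

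Iars, which charges isoleucine tRNA within the multi-synthetase complex, was read by 2 probe sets that disagreed. On the brighter one it stood at 9.06, 8.61 and 8.98 in the NML-KO and 8.62 and 8.86 in the WT livers of the Dbp-high set, against 9.66 and 10.13 in the NML-KO and 10.003, 9.92 and 9.85 in the WT livers of the Dbp-low set. These values do not overlap, with a log2 difference of -1.10 (SE 0.12) and an adjusted p of 0.000391. The difference was -1.01 among NML-KO livers (adjusted p = 0.0891) and -1.18 among WT livers (adjusted p = 0.0084). On the other probe set the log2 difference was -0.08 (SE 0.07), with an adjusted p of 0.537 in the same fit. The lower Iars level therefore rests on 1 probe set, and the stretch of the gene read by either is not known here. The probe set used was the brighter one only in the Dbp-low livers, with a mean of 9.91 against 9.20. In the Dbp-high livers it averaged 8.83 against 9.11. The rule of the highest mean thus chose it through the set where it was high.

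Eprs, the joined enzyme for glutamate and proline, moved the other way. It stood at 9.77, 9.67 and 9.89 in the NML-KO and 9.74 and 9.67 in the WT livers of the Dbp-high set, against 9.59 and 9.42 in the NML-KO and 9.50, 9.32 and 9.38 in the WT livers of the Dbp-low set. The sets did not overlap, and the log2 difference was 0.29 (SE 0.06, adjusted p = 0.0153). Without NML-KO liver 5 the adjusted p was 0.0613. Within a genotype it did not pass, with 0.27 among NML-KO livers (adjusted p = 0.295) and 0.31 among WT livers (adjusted p = 0.0959).

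Of 33 members, Eprs was the only one whose sets did not overlap with the Dbp-high livers above, and Tars and Iars, on the probe set used, the only ones with them below. Among all genes, 5.04% separated upward and 7.12% downward in this way.

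**Figure D1:**
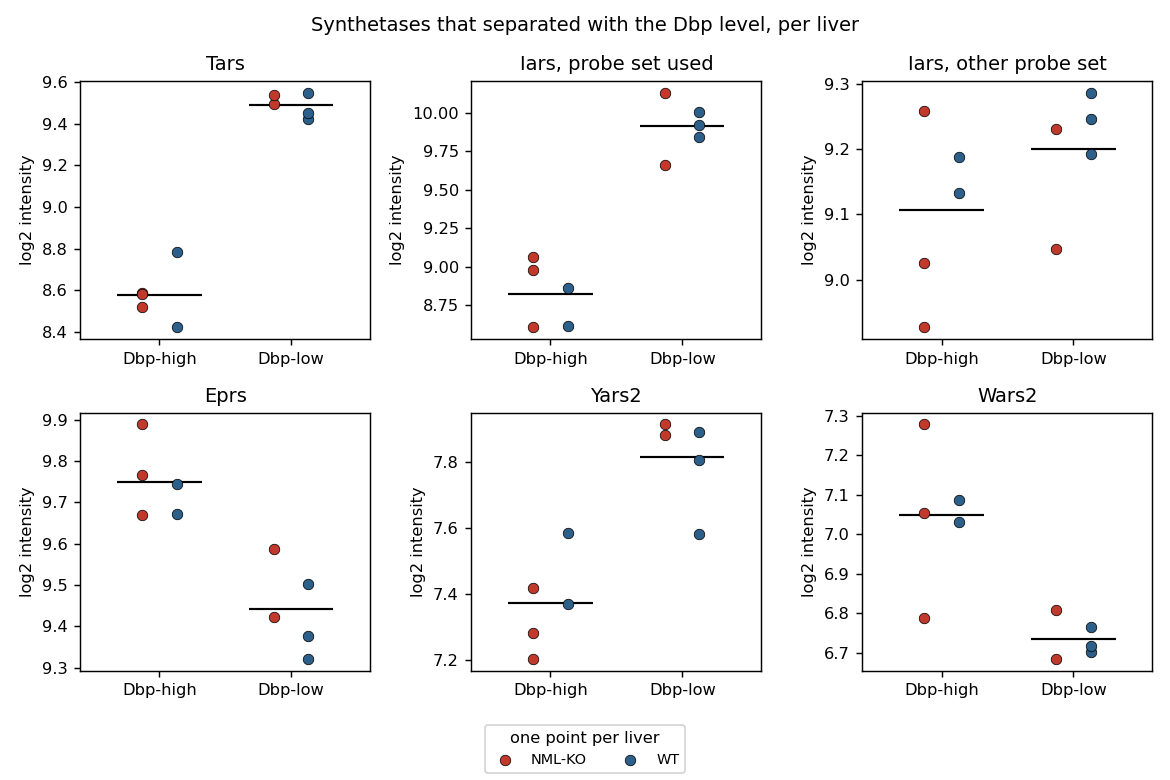
Log2 intensity (vertical axis) in each liver for the 5 synthetases past the threshold between the Dbp sets, with both Iars probe sets. Points are livers (red NML-KO, blue WT), bars are set means, and the vertical axes differ between panels. The sets stand apart for Tars, Eprs and the Iars probe set used, and overlap on the other Iars probe set.

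Among the mitochondrial enzymes, Yars2, which charges tyrosine tRNA, was lower in the Dbp-high livers. It stood at 7.28, 7.20 and 7.42 in the NML-KO and 7.58 and 7.37 in the WT livers of the Dbp-high set, against 7.88 and 7.91 in the NML-KO and 7.58, 7.89 and 7.81 in the WT livers of the Dbp-low set. Only WT livers 1 and 3 met, at 7.58 each. The log2 difference was -0.44 (SE 0.09, adjusted p = 0.0113). It was -0.60 among NML-KO livers (adjusted p = 0.0585) and -0.28 among WT livers (adjusted p = 0.248), past the threshold in neither genotype alone.

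Wars2, which charges tryptophan tRNA in mitochondria, was higher. It stood at 7.05, 6.79 and 7.28 in the NML-KO and 7.09 and 7.03 in the WT livers of the Dbp-high set, against 6.68 and 6.81 in the NML-KO and 6.77, 6.70 and 6.72 in the WT livers of the Dbp-low set. The sets met through NML-KO livers 2 and 5. The log2 difference was 0.31 (SE 0.08, adjusted p = 0.0383), and it passed the threshold in 2 of the 10 fits that each leave out 1 liver, with adjusted p between 0.00609 and 0.0970. It was 0.29 among NML-KO livers (adjusted p = 0.442) and 0.33 among WT livers (adjusted p = 0.0496).

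Of 11 cytosolic enzymes with a mitochondrial counterpart of the same name, 6 had the same sign of difference as it and 5 the opposite sign, a contrast that was not itself tested. Sars had 0.23 and Sars2 0.20, and Cars had -0.09 and Cars2 -0.13. Among the pairs with a called member, Iars on the probe set used had -1.10 and Iars2 -0.08. Tars had a log2 difference of -0.91 and Tars2 one of 0.19 (adjusted p = 0.152). Yars2 had -0.44 and its cytosolic counterpart Yars -0.05 (adjusted p = 0.693). Wars2 had 0.31, while Wars, which is also known as an interferon-induced gene, had -0.30 (SE 0.10) with an adjusted p of 0.0949.

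The next members by p did not pass. Wars stood at 7.30, 7.44 and 7.41 in the NML-KO and 7.39 and 7.75 in the WT livers of the Dbp-high set, against 8.02 and 7.78 in the NML-KO and 7.70, 7.62 and 7.65 in the WT livers of the Dbp-low set. WT liver 2 was the Dbp-high liver that reached the Dbp-low values, and without it the log2 difference was -0.42 (adjusted p = 0.0102). Rars2, the mitochondrial arginine enzyme, stood at 7.51, 7.15 and 7.43 in the NML-KO and 7.33 and 7.44 in the WT livers of the Dbp-high set, against 7.69 and 7.76 in the NML-KO and 7.75, 7.86 and 7.35 in the WT livers of the Dbp-low set. WT liver 5 was the low value of the Dbp-low set. The log2 difference was -0.31 (SE 0.11, adjusted p = 0.0865), and -0.39 without WT liver 5 (adjusted p = 0.0192). Fars2, the mitochondrial phenylalanine enzyme, stood at 7.81, 7.73 and 7.83 in the NML-KO and 7.81 and 7.85 in the WT livers of the Dbp-high set, against 7.75 and 7.66 in the NML-KO and 7.63, 7.57 and 7.66 in the WT livers of the Dbp-low set. Its log2 difference was 0.15 (SE 0.05, adjusted p = 0.0893). The sets met only through NML-KO livers 2 and 4.

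Besides Tars2, 9 synthetases are given here by their log2 difference alone, and these were not called between the Dbp sets either. In the cytosol these were Sars at 0.23, Gars at 0.12, Lars at 0.08, Hars at -0.13 and Rars at -0.17, which charge serine, glycine, leucine, histidine and arginine tRNA. In mitochondria they were Sars2 at 0.20, Vars2 at -0.04, Cars2 at -0.13 and Pars2 at -0.29, which charge serine, valine, cysteine and proline tRNA. Their adjusted p ran from 0.121 for Pars2 to 0.791 for Vars2. Nars2 and Qars, described with the interaction below, were also not called. The difference was -0.40 (SE 0.16, adjusted p = 0.129) for Nars2 and 0.23 (SE 0.08, adjusted p = 0.101) for Qars.

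**Figure D2:**
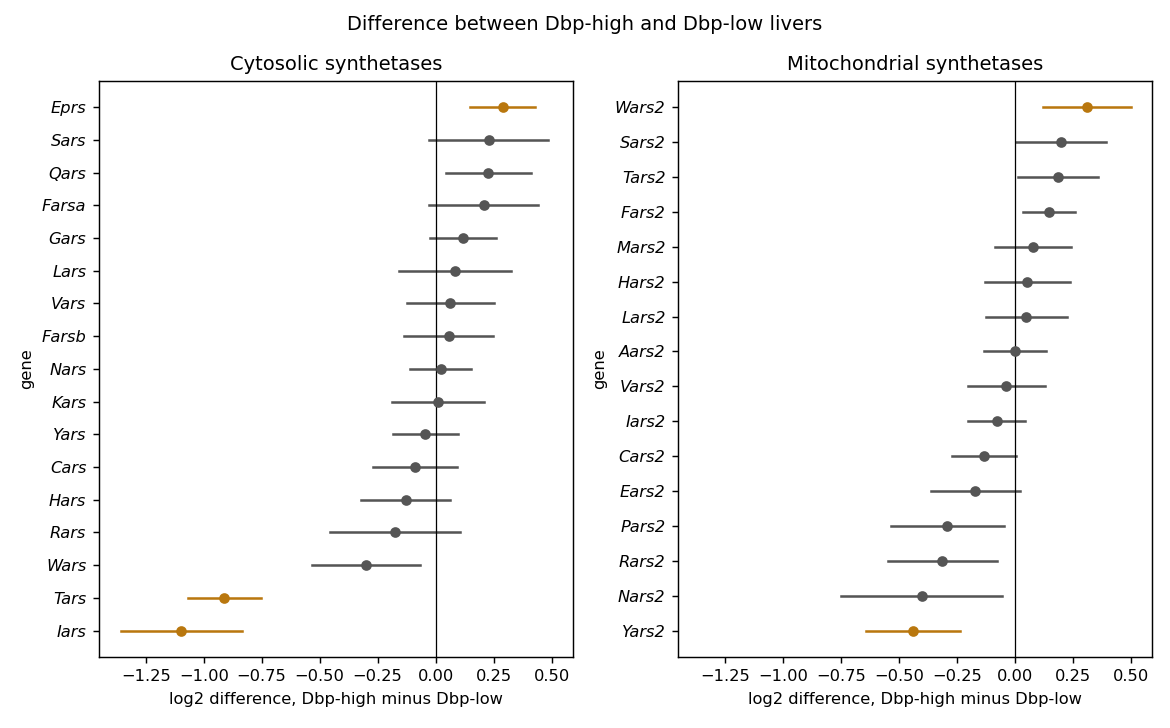
Log2 difference, Dbp-high minus Dbp-low (horizontal axis), for 17 cytosolic and 16 mitochondrial synthetases, with genotype in the model. Points are estimates, bars 95% confidence intervals, and orange marks an adjusted p under 0.05. Values run from -1.10 for Iars to 0.31 for Wars2.

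By structural class, 4 of 18 measured class I enzymes (22.2%) were called, 2 in each direction, and 1 of 15 class II enzymes (6.67%), Tars. The share among all genes was 12.9%. Of the multi-synthetase complex enzymes 6 of 8 were measured and 2 were called (33.3%), Iars lower and Eprs higher. Iars counts among class I and in the complex on the probe set used, and was not called on its other probe set. The scaffold proteins of the complex were all above 0, with a median of 0.23. Aimp1 passed at 0.39 (SE 0.11, adjusted p = 0.0431). Aimp2 had 0.23 (adjusted p = 0.102) and Eef1e1 0.19 (adjusted p = 0.357).

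Genes that work beside the synthetases are set beside the 12.9% of all genes called. The share called was 46.7% for ER chaperones, 40.0% for mitochondrial charging partners, 33.3% for the scaffolds, 25.0% for eIF2alpha kinases, 11.1% for mitochondrial and 6.25% for cytosolic translation factors and 10% for the ATF4 list, and several of these lists hold 3 to 5 measured genes. In the ATF4 and amino acid response list 3 of 30 measured genes were called, with a median of 0.0045: Trib3, a pseudokinase, was higher at 0.56 (SE 0.09, adjusted p = 0.0027), and Atf5, a transcription factor, and Slc3a2, a heavy chain of amino acid transporters, were lower at -0.82 (SE 0.12, adjusted p = 0.0019) and -0.42 (SE 0.09, adjusted p = 0.0127). Of the 4 eIF2alpha kinases, which slow translation under stress, Eif2ak2 was lower at -0.43 (adjusted p = 0.0091), Eif2ak1 had -0.30 (adjusted p = 0.117) and Eif2ak4, the kinase that senses uncharged tRNA, had 0.03 (adjusted p = 0.861). In the ER chaperone and unfolded protein response list 7 of 15 were called, 2 higher and 5 lower, with a median of -0.39. The lower ones included Calr, a calcium-binding chaperone, at -0.29 (adjusted p = 0.0058), Sdf2l1 at -1.05 (adjusted p = 0.0088) and Edem1, which takes part in the degradation of misfolded proteins, at -0.42 (adjusted p = 0.0129). Between NML-KO and WT livers 14 of these 15 genes were above 0, and 0 had an unadjusted p under 0.05.

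In the translation machinery, 1 of 16 measured cytosolic factors was called. This was Eif2s2, a subunit of the initiation factor that brings the first tRNA, at -0.59 (SE 0.13, adjusted p = 0.0137), with Eef2 at 0.20 (adjusted p = 0.0581) and Gspt1 at -0.49 (adjusted p = 0.0582). Of 9 mitochondrial factors, the ribosome recycling factor Mrrf was lower at -0.47 (SE 0.06, adjusted p = 0.0014), with Mtif2 at -0.22 (adjusted p = 0.0672) and Tufm at 0.19 (adjusted p = 0.0743). Mitochondria make glutaminyl-tRNA by converting a mischarged tRNA, through an enzyme of the subunits Qrsl1, Gatb and Gatc. Of the charging partners 5 of 6 were measured and 2 were called. Gatc was lower at -0.48 (SE 0.12, adjusted p = 0.0243), Gatb higher at 0.26 (SE 0.06, adjusted p = 0.0243) and Qrsl1 had 0.06 (adjusted p = 0.760).

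**Figure D3:**
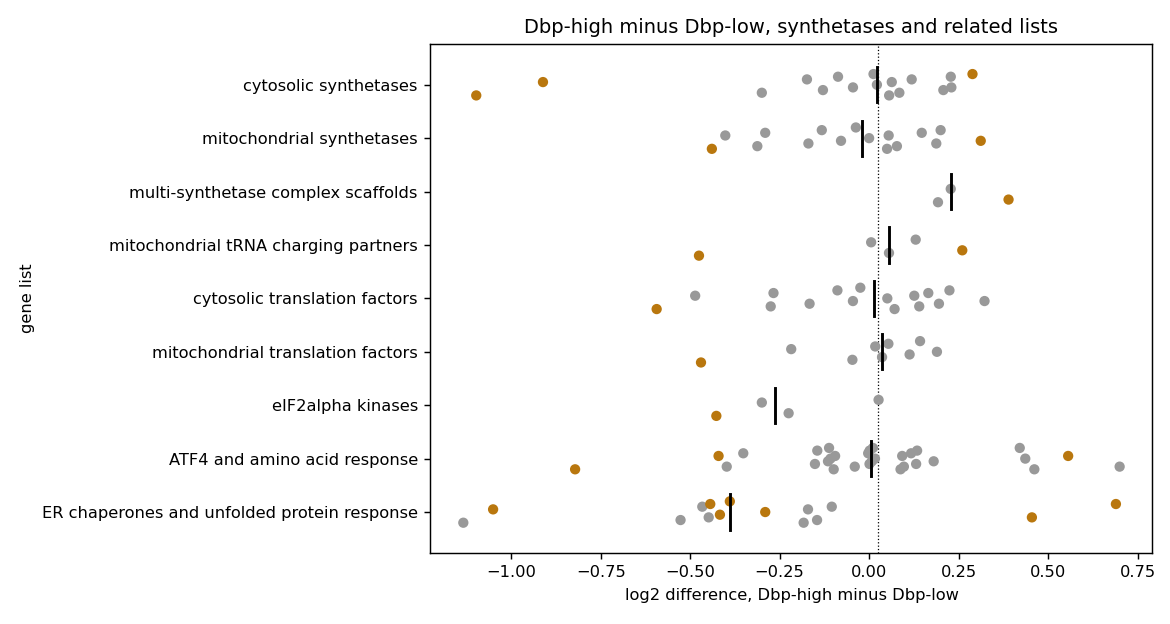
Log2 difference, Dbp-high minus Dbp-low (horizontal axis), for every measured gene of the synthetase lists and 7 related lists. Points are genes, orange marks an adjusted p under 0.05, black bars are list medians and the dotted line is the median of all genes at 0.024. The ER chaperone list has its median at -0.39.

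A few cell type markers were called between the Dbp sets, set here beside the 12.9% of all genes called. The share was 25% of 8 Kupffer cell and macrophage, 20% of 5 cholangiocyte and 14.3% of 7 hepatocyte markers measured. Of the Kupffer cell and macrophage markers, 7 of 8 were below 0 and 2 were called, and their summed intensity ran from 1709 to 3250 in Dbp-high livers and from 2742 to 4518 in Dbp-low livers. The cholangiocyte markers summed to 280.5 to 330.3 in Dbp-high livers and 412.6 to 520.7 in Dbp-low livers, with Sox9 called lower at -1.13 and the 4 others measured above 0 (0.06 to 0.08) and not called. Of 7 measured hepatocyte markers, 4 were above 0 and 3 below, with a median of 0.025, and only albumin was called, at 0.21 (SE 0.04, adjusted p = 0.0090). The neutrophil, lymphocyte, endothelial, stellate and erythroid lists held 0 calls. Their part in the synthetase values was not tested, and in bulk tissue fewer cells of a type and less RNA per cell cannot be told apart.

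Between NML-KO and WT livers, 0 of 33 synthetases passed the threshold, nor did any of the 19935 genes (0%), and every member had an adjusted p of 0.999 in limma. At an unadjusted p under 0.05 there were 2 of 33 members, both mitochondrial, 1 higher and 1 lower, against 2.7% of all genes, 1.05% higher and 1.66% lower. No member separated the genotypes without overlap, against 0.406% of all genes. The median log2 difference was -0.027 for cytosolic and -0.030 for mitochondrial synthetases, with 6 of 17 and 7 of 16 above 0, against -0.0065 and 46.6% for all genes. Differences ran from -0.18 for Tars to 0.18 for Hars2. The Dbp sets were unequally spread over the genotypes, and this fit did not include them. With the Dbp set in the model, the difference was -0.00015 (SE 0.07) for Tars and 0.17 (SE 0.08) for Hars2. For Iars, on the probe set used, it was -0.16 without and 0.06 (SE 0.12) with the set.

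The mean over the cytosolic synthetases was 8.33 ± 0.10 in NML-KO and 8.37 ± 0.06 in WT livers (SD, n = 5 each). The mean over the mitochondrial synthetases was 7.42 ± 0.04 in NML-KO and 7.43 ± 0.05 in WT livers (SD, n = 5 each). The genotypes differed by less than the spread between livers.

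Aars2, the mitochondrial alanine enzyme, stood at 7.10, 7.11, 7.07, 7.06 and 7.11 in NML-KO livers, against 7.37, 7.09, 7.22, 7.31 and 7.20 in WT livers. The NML-KO livers were tightly grouped, and WT liver 2 lay among them. The log2 difference was -0.15 (SE 0.06), with an unadjusted p of 0.0251. Hars2, the mitochondrial histidine enzyme, stood at 7.55, 7.48, 7.46, 7.59 and 7.38 in NML-KO livers, against 7.18, 7.55, 7.16, 7.38 and 7.27 in WT livers. The genotypes overlapped through WT livers 2 and 4. Its log2 difference was 0.18 (SE 0.08), with an unadjusted p of 0.0456.

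Lars2, the mitochondrial leucine enzyme, stood at 6.72, 6.77, 7.07, 6.88 and 6.90 in NML-KO livers, against 7.17, 7.04, 6.90, 7.04 and 6.97 in WT livers (log2 difference -0.16, SE 0.08). Mars2, the mitochondrial methionine enzyme, stood at 6.85, 6.70, 6.57, 6.47 and 6.52 in NML-KO livers, against 6.53, 6.43, 6.57, 6.52 and 6.53 in WT livers (0.11, SE 0.07). Both overlapped between genotypes. Vars, the valine enzyme, stood at 7.80, 7.72, 7.90, 7.85 and 7.89 in NML-KO livers, against 8.16, 8.04, 7.83, 8.12 and 7.78 in WT livers (log2 difference -0.15, SE 0.08). Cars, the cysteine enzyme, stood at 7.56, 7.25, 7.33, 7.60 and 7.51 in NML-KO livers, against 7.69, 7.51, 7.48, 7.61 and 7.70 in WT livers (-0.15, SE 0.08). These overlapped as well, Vars through 2 WT livers and Cars through 3 NML-KO livers.

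Kars, the lysine enzyme of both compartments, stood at 7.45, 7.27, 7.60, 7.60 and 7.55 in NML-KO livers, against 7.62, 7.85, 7.51, 7.66 and 7.55 in WT livers (log2 difference -0.14, SE 0.08). Yars stood at 7.34, 7.26, 7.51, 7.54 and 7.46 in NML-KO livers, against 7.54, 7.53, 7.50, 7.54 and 7.44 in WT livers (-0.09, SE 0.06). For both, the lowest values were NML-KO livers 1 and 2, in the Dbp-high set, and within the Dbp-low livers the differences were 0.0027 and 0.0065. NML-KO liver 2 was the lowest of the 10 livers for 7 of 17 cytosolic synthetases.

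The brightest probe set of each list varied little. Nars, the asparagine enzyme, stood at 9.96, 10.001, 9.91, 9.91 and 9.95 in NML-KO livers, against 9.74, 10.02, 9.87, 9.85 and 9.89 in WT livers. Iars2, the mitochondrial isoleucine enzyme, stood at 8.67, 8.71, 8.66, 8.61 and 8.71 in NML-KO livers, against 8.62, 8.68, 8.83, 8.87 and 8.77 in WT livers. Neither passed in any of the 3 tests.

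**Figure D4:**
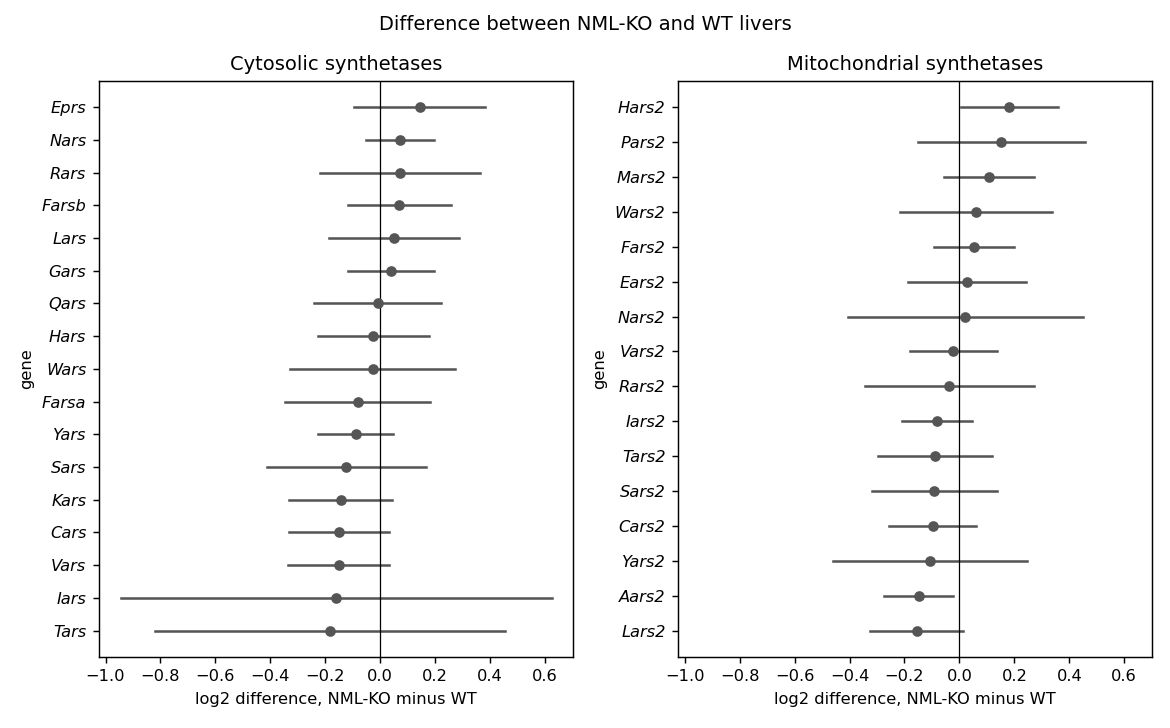
Log2 difference, NML-KO minus WT (horizontal axis), for 17 cytosolic and 16 mitochondrial synthetases, without the Dbp set in the model. Points are estimates and bars 95% confidence intervals. All estimates lie between -0.18 and 0.18, none passed the adjusted threshold, and the bars are widest for Iars and Tars.

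Whether the genotype difference itself differed between the Dbp sets was tested with an interaction term. It passed the adjusted threshold for 0 of 33 members and for 0% of all genes in limma, and at an unadjusted p under 0.05 for 5 of 33 members, 15.2%, 1 above 0 and 4 below, against 6.49% of all genes, 2.65% above and 3.84% below. It was above 0 for 12 of 33 members, against 48.6% of all genes. The genotype difference had opposite signs in the 2 sets for 22 of 33 members, 66.7%, against 52.2% of all genes. Its median was -0.042 in Dbp-high and 0.017 in Dbp-low livers for the cytosolic list, and -0.030 in Dbp-high and -0.013 in Dbp-low livers for the mitochondrial list. Each set holds 2 or 3 livers of a genotype.

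Nars2, the mitochondrial asparagine enzyme, had the smallest interaction p. In the Dbp-high set it stood at 8.30, 7.99 and 8.31 in NML-KO livers, against 7.65 and 7.78 in WT livers. In the Dbp-low set it stood at 8.05 and 8.38 in NML-KO livers, against 8.33, 8.54 and 8.62 in WT livers. The WT livers alone separated by Dbp set, with a log2 difference of -0.79, against -0.02 among NML-KO livers. The interaction was 0.77 (SE 0.20, unadjusted p = 0.00423, adjusted p = 0.717).

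Qars, the glutamine enzyme, in the Dbp-high set stood at 8.92, 8.76 and 8.76 in NML-KO livers, against 9.07 and 9.02 in WT livers. In the Dbp-low set it stood at 8.81 and 8.71 in NML-KO livers, against 8.67, 8.73 and 8.52 in WT livers. Both WT livers lay above the NML-KO livers in the Dbp-high set, and WT livers 3 and 5 lay below them in the Dbp-low set. The interaction was -0.35 (SE 0.12, unadjusted p = 0.0198, adjusted p = 0.742). Wars had an interaction of -0.43 (SE 0.17, adjusted p = 0.765).

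**Figure D5:**
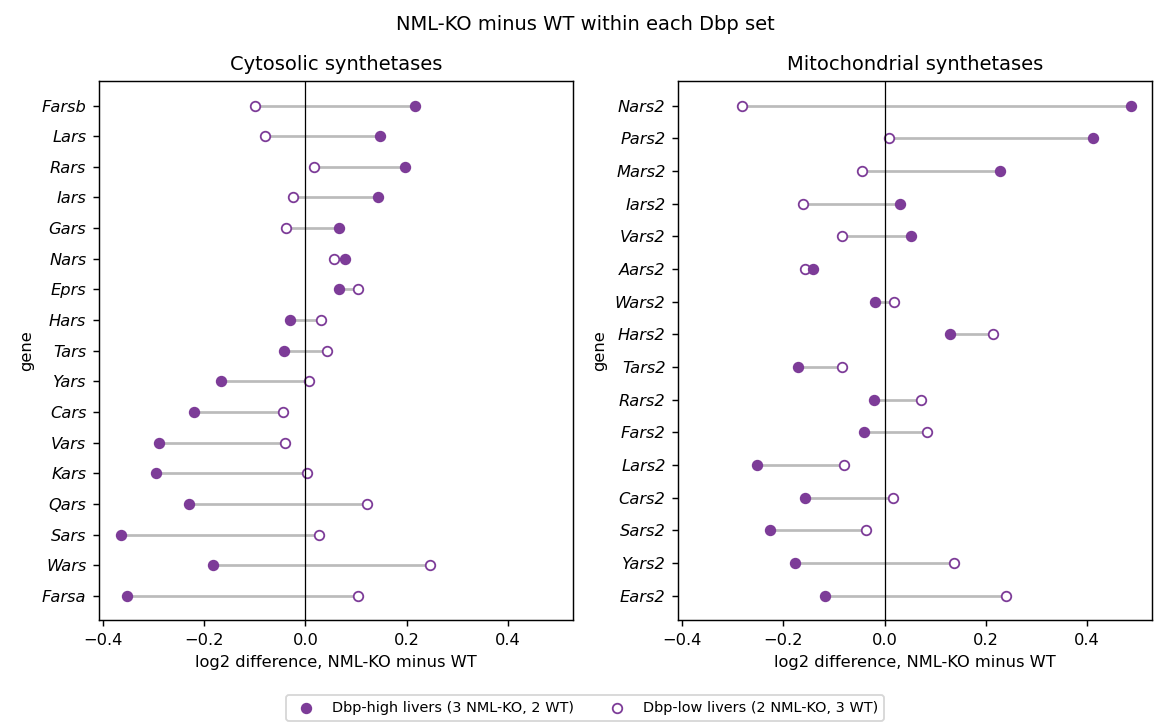
Log2 difference, NML-KO minus WT (horizontal axis), within the Dbp-high livers (filled; 3 NML-KO, 2 WT) and the Dbp-low livers (open; 2 NML-KO, 3 WT) for each synthetase. Grey lines join the 2 values of a gene, and the widest gap is that of Nars2, 0.49 in Dbp-high and -0.28 in Dbp-low livers.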

How the data were processed

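Per the labels' protocols, liver total RNA was extracted with Sepazol and labelled with biotin through an Affymetrix terminal labelling kit. The authors deposited intensity values on a linear scale for 28815 probe sets on 10 arrays. The submitters' processing notes name mouse build mm8. How background, normalization and probe set summary were handled is not stated in what was used here. Background left in the values makes folds of weakly expressed genes smaller.

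Of the probe sets, 21780 had 1 gene symbol in the platform table, 1605 had several and 5430 were not named there. Symbols were updated through gene IDs in a RefSeq table (GRCm38.p6), and the probe set with the highest mean stood for each of 19935 genes. Log2 values were compared with limma 3.58.1 in R 4.3.3 (lmFit, eBayes), with p-values adjusted by Benjamini-Hochberg across the 19935 genes and called at 0.05. The fits were NML-KO against WT, Dbp-high (log2 Dbp above 8) against Dbp-low livers with genotype in the model, and their interaction. The fits were tested on simulated data. No filter on dim genes was applied.

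The members and gene lists were chosen with earlier results of these data known. Values in every liver are given, in each compartment, for the 4 members with the smallest unadjusted p in NML-KO against WT, the 4 with the smallest in Dbp-high against Dbp-low, the 2 with the smallest interaction p and the one with the highest mean. Of each pathway list, the 3 genes with the smallest p in either main comparison are named. Tars2, Farsb, Arntl and the interaction of Wars fall outside that rule and were picked once their values were known.

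Alternatives for the values were the mean over a gene's probe sets, 16 added before log2, median centring or quantile normalization. Alternatives for the fits were array weights, a robust prior with a trend, dropping dim genes, dropping the genotype term, a block for replicate number, the Dbp set as a term or as strata, and leaving out 1 array at a time. The other Iars probe set was added after seeing the data.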

Additional observations from a re-analysis of the deposited data

Results flagged for a closer look

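Of 70 groups of 5 livers, 0 had a liver standing apart by Dixon's criterion, which chance meets in about 1 of 20 groups. A group was the NML-KO or the WT livers for a synthetase or a list mean, so each held livers of both Dbp sets. Where the sets differ, the range of a group is wider, and the criterion can miss an outlying liver. The Dbp sets were not checked in this way.

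For 3 synthetases, every NML-KO liver lay on one side of the WT livers in the Dbp-high set and on the opposite side in the Dbp-low set. These are 9.09% of the 33 members, against 398 of 19935 genes, 2%, with the same pattern. Farsa met it only narrowly in the Dbp-low set. The change in genotype difference between the sets was tested with limma's interaction term and did not pass for any of the 3 synthetases. Farsa and Farsb encode the alpha and beta subunits of the same cytosolic phenylalanine enzyme, and their genotype differences ran in opposite directions.

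Farsa in the Dbp-high set stood at 7.28, 7.02 and 7.23 in NML-KO livers, against 7.60 and 7.46 in WT livers. In the Dbp-low set it stood at 7.19 and 7.21 in NML-KO livers, against 7.19, 7.18 and 6.91 in WT livers. There NML-KO liver 4 (7.1938) and WT liver 3 (7.1925) nearly met. The genotype difference was -0.35 in Dbp-high and 0.10 in Dbp-low livers, an interaction of -0.46 (adjusted p = 0.742).

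Farsb in the Dbp-high set stood at 8.16, 8.23 and 8.52 in NML-KO livers, against 8.06 and 8.12 in WT livers. In the Dbp-low set it stood at 8.08 and 8.10 in NML-KO livers, against 8.18, 8.25 and 8.13 in WT livers. The genotype difference was 0.22 in Dbp-high and -0.10 in Dbp-low livers, an interaction of 0.32 (adjusted p = 0.766).

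Ears2, the mitochondrial glutamate enzyme, in the Dbp-high set stood at 6.88, 6.99 and 6.86 in NML-KO livers, against 7.03 and 7.03 in WT livers. In the Dbp-low set it stood at 7.22 and 7.29 in NML-KO livers, against 6.98, 7.19 and 6.89 in WT livers. The genotype difference was -0.12 in Dbp-high and 0.24 in Dbp-low livers, an interaction of -0.36 (adjusted p = 0.750).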

How the results depend on the processing

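Tars, Yars2 and Iars on the probe set used passed the threshold between the Dbp sets in all 10 fits that left out 1 liver. Eprs passed in 9 of them. Within the Dbp-low livers the genotype difference changed sign for Kars (0.0027), Yars (0.0065) and Mars2 (-0.045), none of them called. Between the Dbp sets, quantile normalization gave medians of 0.10 for the cytosolic and 0.035 for the mitochondrial list, against 0.0087 for all genes. Of called genes, 49.8% were then higher, against 38.1% as deposited. With it, 4 of 17 cytosolic and 3 of 16 mitochondrial synthetases were called, and 13.8% of all genes. Quantile normalization moved the interaction median of the mitochondrial list to -0.0021. A trended and robust prior left 1 mitochondrial call (Wars2 at adjusted p = 0.0533). Fars2, not called as deposited, had an adjusted p of 0.0196 with quantile normalization and 0.0484 with array weights in limma. With the trended and robust prior it was 0.248. Within NML-KO livers alone, where fewer samples were fitted, 256 of 19935 genes were called, with 1 of 17 cytosolic and 0 of 16 mitochondrial synthetases. The cytosolic median was -0.062. Within WT livers 1223 of 19935 genes were called, with 3 of 17 cytosolic and 3 of 16 mitochondrial synthetases. Tars, Iars on the probe set used and Wars2 were among them, and Eprs (adjusted p = 0.0959) and Yars2 (adjusted p = 0.248) were not. The others were not called over all livers and are not listed here. The cause of the other shifts was not tested.

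Leaving out 1 liver at a time, NML-KO against WT gave 0 to 1 genes called (1 without NML-KO liver 4), with medians of -0.084 to 0.0097 for the cytosolic and -0.070 to 0.0090 for the mitochondrial list. Between the Dbp sets it gave 1625 (without NML-KO liver 5) to 2557 genes, 2 to 4 cytosolic and 1 to 3 mitochondrial calls, with medians of -0.031 to 0.058 and -0.061 to 0.0066. For the interaction it gave 0 to 13 genes (11 without WT liver 1, 13 without NML-KO liver 5), with medians of -0.16 to -0.073 and -0.12 to -0.020. For NML-KO against WT, the only comparison fitted with the replicate number as a block, 0 genes were called and the medians were -0.027 and -0.030. Deviations of same-numbered livers correlated at 0.438, 0.264, -0.416, 0.348 and 0.537, and the negative value belongs to the only number split across the Dbp sets. Only NML-KO liver 1 correlated most with the WT liver of its own number, and every best match lay within the same Dbp set. Whether the numbers pair the livers is not settled, and they were not treated as pairs.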

Other observations

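The probe set shared by Aars, the alanine enzyme, and Exosc6, an RNA exosome subunit, stood at 9.13 ± 0.04 in NML-KO and 9.14 ± 0.10 in WT livers (SD, n = 5 each). The same probe set averaged 9.15 in Dbp-high and 9.12 in Dbp-low livers. The 2 genes cannot be told apart there.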
